A study of Mus musculus with 2 samples.

Results

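Transcripts of 10 genes best known from the T cell lineage were followed in plasmacytoid dendritic cells (pDCs), the dendritic cells specialised in type I interferon production. The genes were given as a list and fall into 5 roles. Cd4, Cd8a and Cd8b1 encode coreceptors, Cd7 and Thy1 surface glycoproteins, and Lat the adaptor of T cell receptor signalling. Dntt and Ptcra belong to early lymphoid development, and Cd3e and Cd3g encode chains of the CD3 complex. All 10 were found among 19938 genes with a probe set of their own, each by exactly 1 probe set. The cells were CD11b- BST2+ B220+ pDCs sorted from the bone marrow of fetal liver chimeras 2 months after reconstitution. The blood cells of these mice grew from transplanted fetal liver, Runx2-/- (called Runx2-deficient here) or wild type, so both groups share the transfer and its recovery. The gate named none of the proteins made by the 10 genes. The labels give no host strain, number or sex of mice, age beyond the time since transfer, or share of remaining host cells. There was 1 Affymetrix Mouse Gene 1.0 ST array per genotype, made from 250 ng of total RNA, so no value below has an error, a replicate check or a p-value.

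In a T cell, the T cell receptor is read out through the CD3 chains, which carry the signalling motifs, while CD4 or CD8 binds the MHC molecule and brings a kinase to the complex. The phosphorylated chains recruit further kinases, and LAT then collects the enzymes that carry the signal onward. The chains made by Cd8a and Cd8b1 can pair in a CD8 dimer. Their genes are neighbours in RefSeq's order of protein-coding genes, as are Cd3g, Cd3d and Cd3e. Mouse pDCs share several of these genes with T cells without carrying a T cell receptor, and part of them also carry marks of early lymphoid development such as Dntt. In T cells, Runx proteins bind the silencer of Cd4 and enhancers of the CD8 genes. Runx2 itself was not analysed here, and the genotypes are those of the labels.

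The letters around the start of a gene give context for the genes that stood furthest above 0 and for the dim CD3 chains. RefSeq promoter windows (build GRCm38.p6), which run from 250 bases before the annotated start through 50 bases from it, matched 6 of the 10 genes: Cd8a, Lat, Dntt, Ptcra, Cd3e and Cd3g. A core Runx motif (TGTGGT or TGCGGT) and an E-box of the kind bound by E proteins such as Tcf4 (CAGCTG or CAGGTG) were searched on both strands, and no matches overlapped in these 6 windows. Shown 5′ to 3′ on the gene's strand, without the last 20 bases of the window, are Cd8a, Lat and Dntt, which had the highest differences, and Cd3e and Cd3g, with motif matches in capitals.

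Cd8a (chr6:71373177-71373456, plus strand): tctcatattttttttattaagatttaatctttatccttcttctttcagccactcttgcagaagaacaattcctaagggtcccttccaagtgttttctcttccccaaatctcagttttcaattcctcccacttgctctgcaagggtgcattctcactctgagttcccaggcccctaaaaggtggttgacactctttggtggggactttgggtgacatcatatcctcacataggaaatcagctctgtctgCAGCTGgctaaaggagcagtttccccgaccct
Lat (chr7:126369539-126369818, minus strand): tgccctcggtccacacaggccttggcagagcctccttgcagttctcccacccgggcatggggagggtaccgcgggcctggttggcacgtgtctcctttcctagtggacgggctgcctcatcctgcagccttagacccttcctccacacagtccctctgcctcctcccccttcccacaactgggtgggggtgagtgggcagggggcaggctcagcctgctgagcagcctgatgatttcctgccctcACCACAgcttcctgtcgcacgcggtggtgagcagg
Dntt (chr19:41029025-41029304, plus strand): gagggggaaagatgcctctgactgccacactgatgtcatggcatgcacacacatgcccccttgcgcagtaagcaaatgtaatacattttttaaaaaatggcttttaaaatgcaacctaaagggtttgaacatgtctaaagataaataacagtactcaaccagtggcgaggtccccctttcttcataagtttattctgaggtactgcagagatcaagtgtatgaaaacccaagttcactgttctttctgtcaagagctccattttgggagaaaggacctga
Cd3e (chr9:45009582-45009861, minus strand): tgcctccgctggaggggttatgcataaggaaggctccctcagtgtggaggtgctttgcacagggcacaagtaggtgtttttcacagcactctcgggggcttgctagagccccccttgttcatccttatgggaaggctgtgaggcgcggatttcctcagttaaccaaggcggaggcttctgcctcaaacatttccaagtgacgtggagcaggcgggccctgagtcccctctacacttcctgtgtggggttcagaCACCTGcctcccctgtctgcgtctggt
Cd3g (chr9:44980402-44980681, minus strand): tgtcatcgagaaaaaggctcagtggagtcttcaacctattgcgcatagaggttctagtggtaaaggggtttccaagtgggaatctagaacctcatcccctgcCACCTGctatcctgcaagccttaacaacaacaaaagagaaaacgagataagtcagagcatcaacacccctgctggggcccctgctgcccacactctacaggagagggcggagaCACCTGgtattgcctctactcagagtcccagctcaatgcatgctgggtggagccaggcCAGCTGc

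A Runx core was found in 2 of the 6 windows, Lat and Cd8a, where 22.4% of all 32851 promoter windows of this length hold one. In Lat it lay on the opposite strand from 5 bases before the start up to the start itself. In Cd8a it lay at bases 43 to 48 from the start, beyond the stretch printed, also on the opposite strand. The E-box was found in 4 of the 6, against 32.9% of all windows. Ptcra and Cd3g held 3 matches each and Cd8a and Cd3e 1 each. In Ptcra all 3 read CAGCTG. The Dntt window held neither motif. These matches are letters in a window and not shown binding sites.

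**Figure D1:**
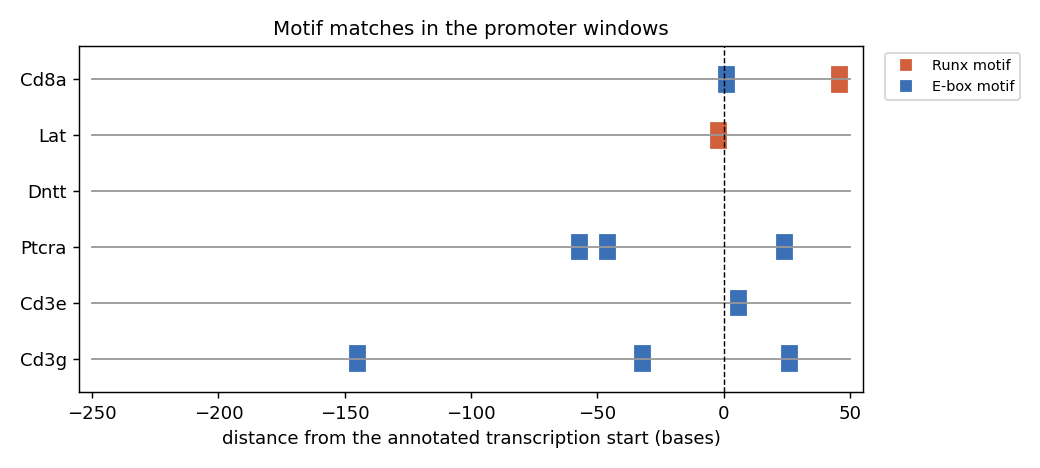
Motif matches in the 6 promoter windows, one line per gene; the horizontal axis is the distance in bases from the annotated start (dashed line), orange boxes are Runx cores and blue boxes E-boxes on either strand. Runx cores appear in 2 windows, Lat and Cd8a, and the window of Dntt holds no match.

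The signal of the 10 genes ran from dim to very bright, from percentile 12.2 to 99.8 of all named genes on the wild-type array. Column medians over all probe sets were 182.9 (wild-type) and 181.7 (Runx2-deficient) intensity units, and the median named gene lay at 7.61 and 7.54 on the log2 scale. Here and below, where a pair of values follows a gene without further words, the wild-type array comes first and the Runx2-deficient array second. Because probe sets differ in brightness per molecule, levels are given as ranks on the array and not as amounts of one gene against another. The 1027 olfactory receptor genes, a family of the nasal epithelium, describe low signal here: their 95th percentile was 7.32 and 7.25 on the log2 scale. Of the 10 genes, 8 lay above the median named gene on both arrays, and Cd3e and Cd3g lay below it on both. The same 8 lay above the 95th percentile of the olfactory receptor genes on both arrays.

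The coreceptor genes were bright and the CD3 chains dim. Cd4 gave 2737 intensity units from wild-type pDCs and 4628 from Runx2-deficient pDCs, percentiles 96.9 and 99.0 of all named genes. Cd8b1, the CD8 beta chain, was at 2202 and 2617 units, percentiles 95.5 and 96.7. Cd8a, the alpha chain, which some conventional dendritic cells also carry, was at 805 and 2472 units, percentiles 82.3 and 96.4. All coreceptor genes were thus in the upper part of the ranking on both arrays. Cd3e gave 189 and 149 units, percentiles 49.0 and 43.1. It lay just above the 95th percentile of the olfactory receptor genes on the wild-type array, at 7.56 against 7.32, and just below it on the other, at 7.22 against 7.25. Cd3g was at 53.8 and 52.8 units, percentiles 12.2 and 12.3, and 57.8% and 56.7% of the olfactory receptor genes were dimmer.

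**Figure D2:**
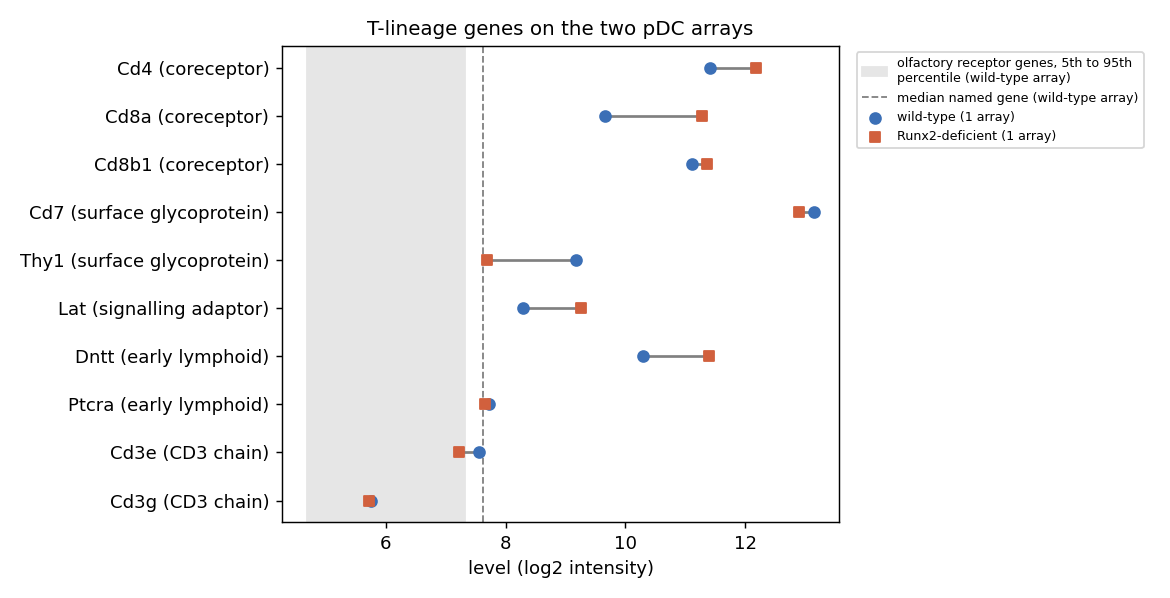
Level of each of the 10 genes as log2 intensity, with the wild-type array as blue circles and the Runx2-deficient array as orange squares (1 array each, no error); the grey band holds the 5th to 95th percentile of olfactory receptor genes and the dashed line the median named gene, both on the wild-type array. The coreceptor genes lie to the right of both marks, and Cd3g lies within the band at 5.75 and 5.72.

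Between the genotypes, 2 of the 10 genes, Cd8a and Dntt, were higher by 2-fold or more in Runx2-deficient pDCs, and 1, Thy1, was lower by that much. Of all named genes, 0.436% were higher and 0.647% lower by 2-fold or more. Among genes at or above the median named gene on at least 1 array, as 8 of the 10 were, these shares were 0.793% and 1.17%. The differences of the 10 genes, Runx2-deficient minus wild-type on the log2 scale, ran from -1.47 to 1.62 with a median of 0.11, and 5 were above 0 and 5 below. Across all named genes the median was -0.033, 42.6% were above 0, and the central 95% ran from -0.56 to 0.50. The genes therefore had no shared direction. Cd8a, Dntt, Lat, Cd4 and Thy1 lay outside the central 95% of all named genes.

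The differences of the coreceptor genes were all above 0 but unequal. Cd8a, at 9.65 and 11.27 on the log2 scale, was 3.07-fold higher, the 18th highest difference of 19938 genes. Cd4, at 11.42 and 12.18, was 1.69-fold higher and ranked 182nd. Cd8b1, at 11.10 and 11.35, was 1.19-fold higher and ranked 1958th, within the central 95% of all genes. The difference of Cd8a exceeded that of its neighbour and dimer partner Cd8b1 by 1.37 on the log2 scale. In RefSeq's order of protein-coding genes, Cd4 lies between Gpr162 and Lag3. The value of Gpr162 is not reported here. Lag3 encodes a CD4-related receptor for MHC class II. Lag3 was at 9.77 and 9.02, a difference of -0.74 where that of Cd4 was 0.76.

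The surface glycoprotein genes were both below 0. Cd7, an immunoglobulin-family receptor of T and NK cells and their progenitors, had the highest rank of the 10, at 9073 and 7660 intensity units. That is percentile 99.8 and 99.7 of all named genes. Its difference was -0.24. Thy1, the CD90 antigen of thymocytes and T cells, was at 575 and 207 units, and was 2.78-fold lower in Runx2-deficient pDCs, the 69th lowest difference of all named genes. At 7.70 on the log2 scale, it lay close to the median named gene of that array (7.54), and at 9.17 well above it in the wild-type sample. Thy1 was thus the one gene of the 10 that was past 2-fold in the opposite direction to Cd8a and Dntt.

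Lat stood just short of the 2-fold mark. It gave 312 and 615 intensity units, which is 1.97-fold higher and the 91st highest difference. After the median difference of all named genes was subtracted, the log2 difference of Lat was 1.01 and it passed 2-fold. At 1.5-fold, 4 of the 10 genes were higher (Cd8a, Dntt, Lat and Cd4) and 1 was lower (Thy1), where 1.73% and 2.22% of all named genes were.

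The early lymphoid genes differed from each other. Dntt, which encodes terminal deoxynucleotidyl transferase, the polymerase that adds untemplated bases during antigen receptor gene assembly, gave 1249 and 2687 intensity units. It was 2.15-fold higher, the 60th highest difference. Dntt lies between Blnk and Opalin, and the value of Opalin is not reported here. Blnk, an adaptor of B cell receptor signalling, was at 11.60 and 12.13 on the log2 scale. Ptcra, which encodes the invariant chain of the pre-T cell receptor, was at 210 and 203 units, near the median named gene on both arrays. Its difference of -0.055 turned to 0.016 after correction for the trend with intensity, so it has no stated direction.

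Neither CD3 gene was near 2-fold. Cd3e differed by -0.34, within the central 95% of all named genes, and Cd3g by -0.028, which turned to 0.0049 after median centring and 0.0037 after correction for the intensity trend. All named genes were split into 4 equal classes by mean level, from class 1 (dimmest) to class 4 (brightest). The share at least 2-fold apart in either direction was 0.0602% in class 1, which holds Cd3g. It was 0.562% in class 2, which holds Cd3e, and 2.11% in class 3, which holds Thy1, Lat and Ptcra. In class 4, which holds Cd4, Cd8a, Cd8b1, Cd7 and Dntt, it was 1.6%. A small difference of a dim gene on these arrays therefore does not show equal RNA.

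**Figure D3:**
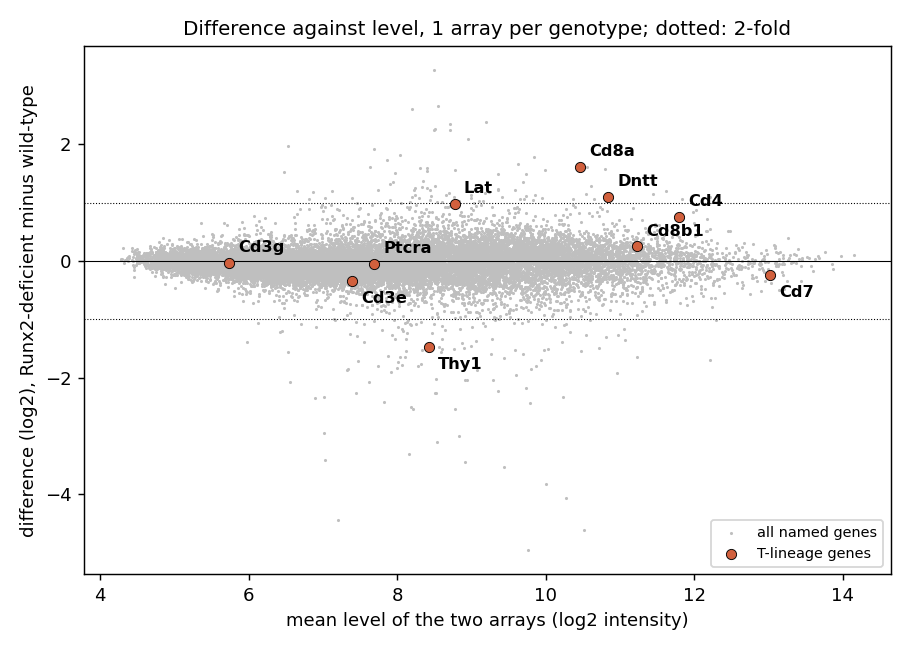
Difference (log2, Runx2-deficient minus wild-type, 1 array each) against the mean level of both arrays for all named genes (grey) and the 10 T-lineage genes (orange); dotted lines mark 2-fold. Cd8a and Dntt lie above the upper line, Lat just under it at 0.98, Thy1 below the lower line, and the grey cloud narrows at low levels, where Cd3g lies.

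The other measured chains of the T cell receptor lay in the lower or middle part of the ranking. Cd3d, the third chain of the CD3 cluster, was at 6.24 and 6.13 on the log2 scale. Cd247, the zeta chain that also serves NK cell receptors, was at 7.30 and 7.58, below the median named gene on the wild-type array and just above it on the other. With Cd3e, Cd3g and Ptcra this made 5 measured genes, of which 0 were 2-fold apart in either direction, with a median difference of -0.055 that turned to 0.0037 after correction for the intensity trend. The constant regions (Trac, Trbc1, Trbc2, Trdc, Trgc1 and Trgc2) were not analysed here.

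Genes that act downstream of the receptor were mostly measured well above low signal. Of 33 signalling genes, Lat included, 23 reached the median named gene on at least 1 array, 1 was higher by 2-fold or more and 0 were lower, and the median difference was -0.069. The gene past 2-fold was Lax1, a membrane adaptor that dampens receptor signalling, at 7.67 and 9.04. The difference furthest below 0 among those was that of Fyn, a Src-family kinase, at 12.54 and 11.91. The related kinases Syk and Zap70 stood apart in their rank on the arrays. Syk, which serves B cell and Fc receptors, was at 11.13 and 10.86, while Zap70, its T cell counterpart, was at 6.63 and 6.43, below the 95th percentile of olfactory receptor genes. Lcp2 (SLP-76), the partner of LAT, was at 9.94 on both arrays, beside 8.29 and 9.26 for Lat.

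T cell surface molecules outside the receptor had the most genes past 2-fold among the T-lineage lists. Of 27 measured, 4 were higher by 2-fold or more in Runx2-deficient pDCs and 0 were lower, where 0.436% and 0.647% of all named genes were. The median difference was 0.11. The list is not particular to T cells: Ccr9 and Ly6d are also among the pDC markers below, and Ccr7 among the conventional dendritic cell markers. Il2ra, which encodes CD25, was at 8.01 and 10.40, Cd27, a TNF receptor family member, at 8.79 and 10.46, and Ccr7, the lymph node homing receptor, at 9.02 and 10.37. The fourth was the inhibitory receptor gene Btla, at 9.83 and 10.89. Cd96 was furthest below 0 among genes that reached the median named gene on at least 1 array, at 7.79 and 6.79. Its difference of -0.998 missed 2-fold, and Cd96 reached that median on the wild-type array only.

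Regulators of the coreceptors and of the early T lineage were, with a single exception, within 2-fold. Of 31 measured, 1 was at least 2-fold higher and 0 were lower, with a median of -0.058. The exception was Ikzf3 (Aiolos), at 7.38 and 9.63. Runx1 was at 11.15 and 11.62, Runx3, which silences Cd4 in CD8 T cells, at 10.49 and 10.11, and their partner Cbfb at 10.05 and 10.01. Zbtb7b (ThPOK), which directs thymocytes to the CD4 fate, was at 7.74 and 8.32, a difference of 0.57. Gata3, needed at several steps of T cell development, was dim at 6.50 and 6.24. Hhex was furthest below 0, at 10.17 and 9.52.

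Among genes of V(D)J recombination and early lymphoid cells, Dntt alone was past 2-fold. Of 25 measured genes, 1 was higher by 2-fold or more and 0 were lower, with a median of -0.012 that was 0.021 after median centring. Rag1 and Rag2, the recombinase that cuts the gene segments, were at 6.94 and 7.22 and at 5.41 and 5.40. Both lay below the 95th percentile of olfactory receptor genes on both arrays. Cd79a, a signalling chain of the B cell receptor, was furthest below 0 among those past the median level, at 8.64 and 8.06.

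**Figure D4:**
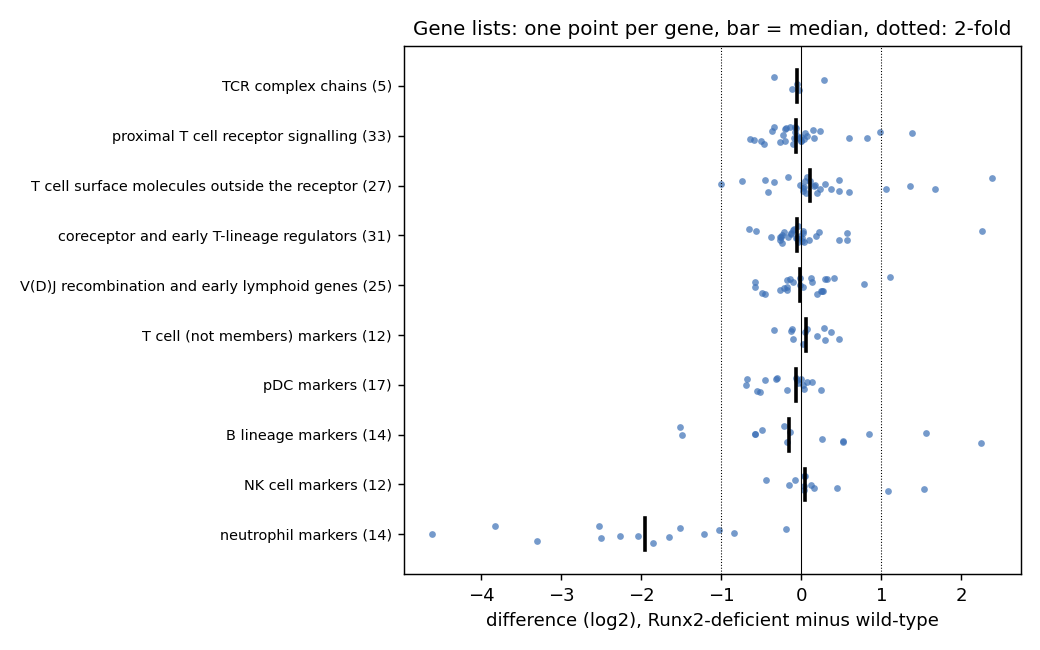
Difference (log2, Runx2-deficient minus wild-type) of each gene in 10 lists, one point per gene, with the number of measured genes in brackets, the median as a black bar and dotted lines at 2-fold; some genes are in more than 1 list. The 5 T-lineage lists have medians between -0.069 and 0.11, while the neutrophil list lies at -1.95.

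Markers of other cells were measured on the same arrays. Of 12 T cell markers other than the 10 genes, 5 (wild-type) and 6 (Runx2-deficient) lay above the 95th percentile of olfactory receptor genes, and 0 were 2-fold apart. Their intensities summed to 8780 and 10578 units, of which Il7r gave the most, and to 2346 and 2709 units without it. Cd6 differed the most upward among those past the median level, at 7.67 and 8.14. Their log2 levels ran from 4.81 to 12.65 and from 4.88 to 12.94. Trat1 and Themis, which act at the T cell receptor, were at the low end, Trat1 at 4.81 and 4.88 and Themis at 5.82 and 5.73. The high end was Il7r, the interleukin-7 receptor chain, at 12.65 and 12.94. All 17 measured pDC markers lay above that percentile on both arrays and 0 were 2-fold apart, with 12 below 0 and a median of -0.071. Siglech was at 13.48 and 13.55 and Tcf4 at 13.16 and 13.11, while the transcription factor gene Spib was furthest below 0, at 12.33 and 11.64, and Tlr7 furthest above, at 11.93 and 12.17. Of 12 NK cell markers, 2 were at least 2-fold higher, 0 were lower. The 2 were Klrk1, an activating receptor gene, at 6.86 and 7.93, and Klra8, at 5.71 and 7.24. Klra8 lay below the median named gene on both arrays. Ncr1, which defines the type, was within 2-fold, at 6.34 and 6.79. Of 14 B lineage markers, 2 were higher, Bank1 (7.59 and 9.84) and Cd22 (a difference of 1.56), and 2 lower, Blk (9.36 and 7.85) and Cd72 (11.46 and 9.96). Of 10 markers of type 1 conventional dendritic cells, which can carry CD8 alpha, 0 were at least 2-fold higher and 1 was lower, the adhesion gene Cadm1, at 9.04 and 7.95. Their defining Xcr1 was at 6.64 and 6.61, and Clec9a, also known from pDCs, at 11.93 and 12.09. Of 10 other conventional dendritic cell markers, 1 was higher, Ccr7, and 2 were lower. Itgax, which encodes CD11c, differed by -2.43, and the MHC class II gene H2-Ab1 was at 12.80 and 11.80, a difference of -1.01 that fell short of 2-fold after median centring and after the loess correction. Of 14 neutrophil markers, 12 were lower by 2-fold or more in Runx2-deficient pDCs, with Ngp at 12.82 and 8.21, and of 8 erythroid markers 4 were, with Slc4a1 at 9.66 and 7.39. The Y-linked Eif2s3y was at 9.42 and 4.98. The part of these cells and of donor sex in the differences of the 10 genes was not tested. In a sorted population measured in bulk, fewer cells of a type and less RNA per cell cannot be told apart.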

How the data were processed

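The deposited values are linear intensities, 1 per probe set and array, made by the authors with RMA (background correction, quantile normalisation and probe summary), per the submitters' processing notes. The software, its version, the annotation and the set of arrays normalised together: each is not given in the sources used here. Such values compress dim differences, and no detection call was used. Values were taken to log2 and wild-type was subtracted. Of 35556 probe sets, 21789 carry exactly 1 gene symbol in the platform annotation, 1621 several and 12146 none; 21698 matched RefSeq by gene identifier. Where a gene had several (999 of 19938 genes), the brightest was used. A difference was counted from 2-fold, without a test, since there was 1 array per genotype, and the number of arrays limits the precision. Members and lists were chosen with earlier results of these data known. Named genes are the members, the receptor chains, and fixed regulators and markers. Added were up to 3 past 2-fold per list and direction, or else the furthest. These were taken only from genes at or above the median named gene on at least 1 array, so a dimmer gene can differ more. Not every gene the rule allows is printed. Lag3, Blnk, Btla, Trat1, Themis, Il7r and Klra8 were named outside that rule after their values were seen. The counting code was run on simulated pairs of arrays whose spread and planted differences were set in advance. That checks the code only, and not how reliable a 2-fold count is with 1 array per genotype. Promoter letters are RefSeq's. Alternatives were median centring, a loess correction (span 0.3), the mean of probe sets, a 1.5-fold threshold and brightness filters. Tools were pandas 2.3.3 with numpy 2.4.6 in Python 3.11.15, statsmodels 0.14.6 for loess, and matplotlib 3.10.9.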

Additional observations from a re-analysis of the deposited data

How the results depend on the processing

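No paired analysis was possible because each genotype had 1 array. Median centring and the loess correction kept all 10 genes on their side of 2-fold, except Lat, at 1.01 after centring, which made 2 signalling genes past 2-fold; Ptcra (0.016 after loess) and Cd3g (0.0049 and 0.0037) changed sign near 0. The mean of probe sets changed none, as each gene had 1. At 1.5-fold, 4 of the 10 genes were higher, and 345 named genes were higher and 442 lower. A filter kept only genes at or above the median named gene on at least 1 array. List medians were then 0.11 (receptor chains, 2 genes), 0.29 (T cell markers), 0.062 (B lineage), -2.15 (neutrophil) and -1.64 (erythroid). Over all measured members they were -0.055, 0.058, -0.16, -1.95 and -1.21. Fewer genes enter each, and some enter only through the array where they are higher, such as Cd247 (Runx2-deficient) and S100a8 (wild-type). The filtered medians therefore follow in part from the filter and are no support for a difference. Dim signal limits Cd3e, Cd3g and Ptcra.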
